A study of Mus musculus with 4 samples.

Results

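Genes with bodies of 200 kb or more were defined as protein-coding genes of GENCODE M21 (GRCm38) whose annotated end minus start was at least 200 kb and that had at least 10 counts in every library. The annotation held 998 protein-coding genes of that length. Of these, 996 were rows of the count table and 526 passed the count minimum. The 526 long genes lay on 20 chromosomes, 20 of them on the X chromosome, among 12698 protein-coding genes that passed the same minimum. They were compared with 3626 such genes whose bodies were 20 to 50 kb.

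The libraries came from intestinal crypts of C57BL/6 mice, the epithelial pits in which the stem cells of the intestine reside, isolated with EDTA. One group was wild type (WT, n = 2 libraries). The other was Vil-CREPTKO (n = 2 libraries), in which Cre driven by the villin promoter acts on floxed alleles of Rprd1b, the gene for CREPT, in intestinal epithelium only, so that other cells in a crypt preparation keep the gene. No treatment, age or sex was given in the labels. The study's methods describe the RNA-seq as done on biological replicates, with 2 mice per genotype. The design addressed the role of CREPT in the intestine.

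A long gene body is made mostly of introns, and an RNA polymerase II that has started at the promoter must stay engaged across all of it before a full transcript is released. Elongation factors, topoisomerases and U1 snRNP, which blocks premature cleavage and polyadenylation inside introns, are known to be of particular weight for long genes. CREPT binds the C-terminal domain of RNA polymerase II and has been linked to transcription start and termination. Many very long genes encode adhesion, signalling and synaptic proteins, and several span common fragile sites.

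Of the 526 long genes, 4 had an adjusted p under 0.05 in edgeR's quasi-likelihood test, 1 higher and 3 lower in Vil-CREPTKO crypts. Mgmt was the higher, and Cadps2 and Dnah8 were among the lower. The promoters of these 3 are shown because they hold a RefSeq start of long genes that changed. Each sequence runs 5′ to 3′ on the strand of the gene (RefSeq, GRCm38.p6), from 250 bases before to 50 bases after the start, and capitals mark CG dinucleotides. The Mgmt window lies at chr7:136894336-136894635 on the plus strand, Cadps2 at chr6:23839372-23839671 on the minus strand and Dnah8 at chr17:30626686-30626985 on the plus strand. The Dnah8 window is set on a start 2582 bp inside the GENCODE body, and its first 186 bases lie in Glo1, a gene of the opposite strand.
Mgmt: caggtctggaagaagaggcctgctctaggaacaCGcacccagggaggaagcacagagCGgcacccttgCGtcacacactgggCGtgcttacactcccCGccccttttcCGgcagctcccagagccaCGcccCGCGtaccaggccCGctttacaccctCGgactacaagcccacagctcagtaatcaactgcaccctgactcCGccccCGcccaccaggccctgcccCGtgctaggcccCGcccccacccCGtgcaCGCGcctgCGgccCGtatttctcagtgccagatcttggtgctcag
Cadps2: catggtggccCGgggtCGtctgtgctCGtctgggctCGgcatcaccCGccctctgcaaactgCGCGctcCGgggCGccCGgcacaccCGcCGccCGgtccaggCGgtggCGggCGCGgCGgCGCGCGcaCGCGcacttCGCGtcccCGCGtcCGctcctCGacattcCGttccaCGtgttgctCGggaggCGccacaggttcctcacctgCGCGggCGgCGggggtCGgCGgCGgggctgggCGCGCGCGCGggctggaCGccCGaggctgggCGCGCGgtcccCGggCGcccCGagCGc
Dnah8: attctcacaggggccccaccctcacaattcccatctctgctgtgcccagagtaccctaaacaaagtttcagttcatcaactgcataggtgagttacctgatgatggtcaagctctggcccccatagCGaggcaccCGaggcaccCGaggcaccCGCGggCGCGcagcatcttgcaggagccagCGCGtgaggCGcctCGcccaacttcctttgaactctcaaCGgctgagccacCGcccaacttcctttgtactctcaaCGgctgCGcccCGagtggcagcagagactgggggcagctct
The Mgmt window held 20 CG, the Cadps2 window 54 and the Dnah8 window 16, against a median of 7 CG (quartiles 3 and 20) over the 27025 promoters of the table. All 3 windows were CpG-rich by a common definition, an observed to expected CG ratio of at least 0.6 with a GC content of at least 50%, as were 34.1% of all promoters. Mgmt (ratio 0.652), which rose, and Cadps2 (1.13) and Dnah8 (0.602), which fell, all met it, but Dnah8 lay just above the limit. A count of 54 CG or more, as in Cadps2, was found in 0.355% of promoters.

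Total counts per library were 47241049 to 49369315, and the 526 long genes took 1.73% to 1.94% of them. Rprd1b had 3087 and 3030 counts in WT against 1142 and 1424 in Vil-CREPTKO crypts, and the log2 fold change was -1.14 ± 0.12 (SE, adjusted p = 0.0041 by edgeR). WT replicate 2 had 860 CPM (counts scaled to a common library size) of Xist and none from Y-linked genes, whereas in the remaining 3 Xist lay at 0.275 to 0.539 CPM and the Y-linked genes at 151 to 158 CPM. Mitochondrial transcripts took 10.2% of counts in Vil-CREPTKO replicate 1 and 6.75% to 7.62% in the others. Epithelial markers were detected throughout, their summed level being 13024 to 15403 CPM with all 13 above 0, whereas 9 smooth muscle markers summed to 0.931 to 1.34 CPM and 11 stromal markers to 13.3 to 28.4 CPM. The 7 tuft cell markers were all lower in Vil-CREPTKO crypts, with sums of 218 and 244 CPM in WT but 116 and 120 CPM after deletion (median log2 fold change -0.87), and 3 of them had an adjusted p under 0.05. Immune markers summed to 998 and 730 CPM in WT but 648 and 599 CPM in Vil-CREPTKO, where 2 of 17 were lower and 1 higher at an unadjusted p under 0.05. Of 11 enteroendocrine markers, 4 were higher at that level, the sums being 365 and 325 CPM in WT but 355 and 481 CPM in Vil-CREPTKO. The 10 enterocyte markers overlapped between the groups in sum (19173 and 23673 CPM in WT, 29510 and 20105 CPM in Vil-CREPTKO), and the 11 neuronal and glial markers stayed at 3.85 to 4.76 CPM. Dclk1 is 1 of the tuft markers and is itself a long gene (296.7 kb), with 2365 and 3137 counts in WT against 1797 and 2047 in Vil-CREPTKO (-0.41 ± 0.16 SE, adjusted p = 0.281 by edgeR). Whether these shifts of markers had a part in the values of the long genes was not tested, and in such bulk samples fewer cells of a type cannot be told apart from less RNA per cell.

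Changes that passed the test were rarer among the long genes than over the table, except without a filter on low counts. The 4 long genes with an adjusted p under 0.05 were 0.760% of the class, whereas 2.71% of the 17504 genes tested had one. The 3 that fell were 0.570% of the class against 2.29% of all genes, and the 1 that rose was 0.190% against 0.423%. A call was defined as an adjusted p under 0.05 with an absolute log2 fold change over 1. It was met by 2 long genes, Mgmt among them, and by 1.64% of all genes tested. Among the 3626 genes of 20 to 50 kb, 51 fell and 19 rose (1.93% together). With DESeq2, 11 long genes fell and 4 rose (2.93% of the 512 with an adjusted p), against 4.14% and 1.21% of all genes (5.35% together). The order turned without the filter on low counts, where 30 long genes (5.70%) passed in edgeR against 4.35% of all genes.

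The share of changed genes was highest in the shortest bodies. It was 7.64% under 5 kb and 5.11% from 5 to 20 kb, and it lay between 0.595% and 1.18% in each class from 50 kb up. The 0.760% of the long genes was close to the 0.761% of genes of 50 to 100 kb and the 0.858% of genes of 100 to 200 kb, as the plot of changed genes by body length shows. Read depth per gene differed between the classes: the median WT level was 15.6 CPM in the long genes and 28.2 CPM in genes of 20 to 50 kb, and the median SE of a log2 fold change was 0.180 and 0.157, respectively.

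**Figure D1:**
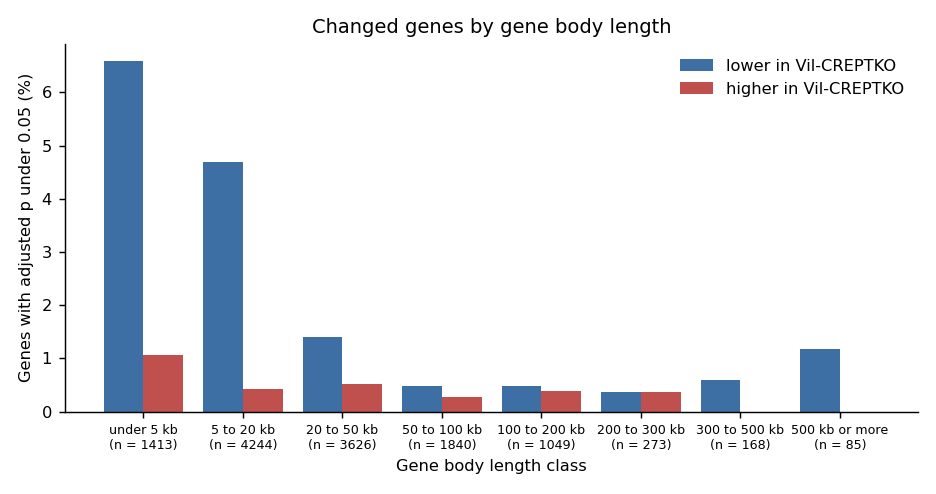
Bars give the percentage of protein-coding genes (10 or more counts in every library) with an edgeR adjusted p under 0.05, lower (blue) or higher (red) in Vil-CREPTKO crypts, in 8 classes of gene body length. The lower bar was 6.58% under 5 kb and 0.366% to 1.18% in the 3 classes of 200 kb or more.

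At an unadjusted p under 0.05 the long genes leaned to lower values. Of them, 46 were lower (8.75%, against 9.76% of all genes tested) and 12 were higher (2.28%, against 4.49%), so that 79.3% of these 58 were lower, compared with 68.5% over all genes tested and 59.9% in genes of 20 to 50 kb. The lean depended on scaling: it was 65.6% lower with upper-quartile scaling, 62.1% after a GC and length correction and 90.2% with library-size scaling, whereas in genes of 20 to 50 kb it was 48.4%, 39.9% and 75.6%. The excess of this lean over genes of 20 to 50 kb was small without Vil-CREPTKO replicate 1. With that library left out, most of these long genes were still lower, by nearly the same share as genes of 20 to 50 kb. The share over all genes tested was larger in that fit. In 236 long genes (44.9%) the 2 groups did not overlap in CPM, close to the 45.1% found over all genes tested.

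Mgmt encodes the methyltransferase that removes alkyl groups from guanine in DNA. It spans 235.7 kb (chr7:136894614-137130266, plus strand) with 5 exonic blocks, and introns make up 98.8% of the body. Its counts were 106 and 70 in WT against 264 and 295 in Vil-CREPTKO, which is 1.75 ± 0.46 and 6.04 ± 0.05 CPM (SD, n = 2 each). Both Vil-CREPTKO libraries lay well above both WT libraries, with a log2 fold change of 1.79 ± 0.28 (SE, adjusted p = 0.0150 by edgeR).

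Cadps2 encodes a calcium-dependent activator of dense-core vesicle secretion. Its body of 576.6 kb (chr6:23262773-23839421, minus strand) made it the longest gene that passed the test. The counts were 1106 and 1068 in WT against 466 and 682 in Vil-CREPTKO, and the levels were 21.7 ± 0.02 and 12.3 ± 2.24 CPM (SD, n = 2 each). The groups did not overlap, but the log2 fold change of -0.82 ± 0.17 (SE, adjusted p = 0.0457 by edgeR) was close to the threshold. It missed the threshold with upper-quartile scaling (adjusted p = 0.0632) and without WT replicate 1 (0.0546), WT replicate 2 (0.0730) or Vil-CREPTKO replicate 1 (0.129) in edgeR.

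Dnah8 encodes an axonemal dynein heavy chain, a motor subunit of motile cilia and sperm tails. It spans 253.0 kb (chr17:30624354-30877365, plus strand) in 98 exonic blocks, and its longest intron is 14.5 kb, so its length is spread over many short introns. It had 2761 and 3024 counts in WT against 1323 and 1815 in Vil-CREPTKO, or 57.8 ± 5.20 and 33.7 ± 4.61 CPM (SD, n = 2 each, log2 fold change -0.78 ± 0.14 SE, adjusted p = 0.0260 by edgeR and 0.0748 without WT replicate 2). The 5′ end of its annotated body lies inside Glo1, which is on the opposite strand. Glo1 had 5145 and 5238 counts in WT against 5348 and 5662 in Vil-CREPTKO crypts, and the log2 fold change was 0.20 ± 0.12 (SE). The strand setting of the counting was not given in the sources used here, so reads from the shared stretch cannot be assigned to either gene.

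**Figure D2:**
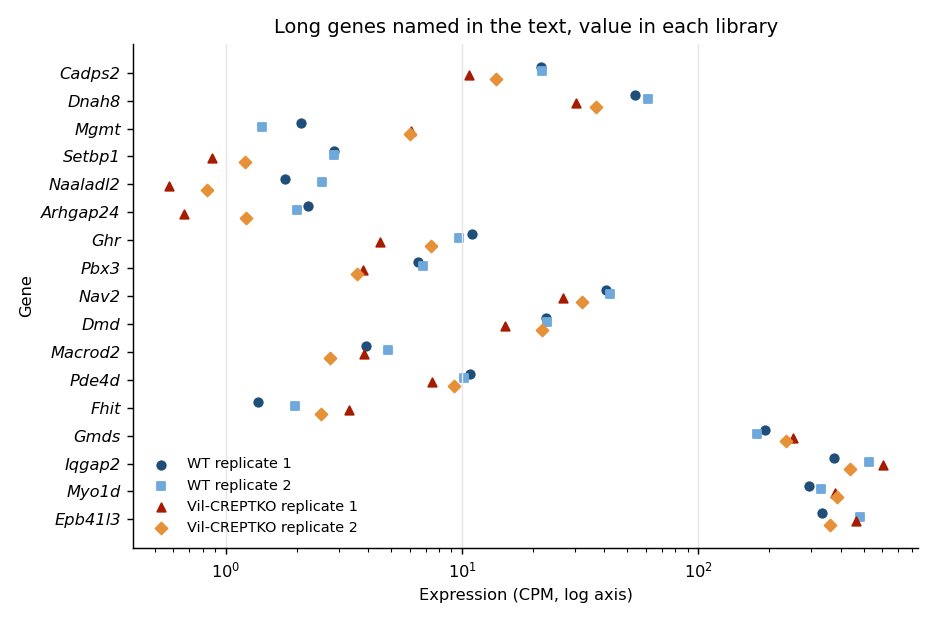
Each point is the expression of a long gene in 1 library, in CPM on a log axis, for 17 genes named in the text; blue symbols are WT and red and orange symbols Vil-CREPTKO. Mgmt rose from 2.08 and 1.42 to 6.07 and 6.01 CPM, whereas Iqgap2 and Epb41l3 varied as much within a group as between groups.

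Another 11 long genes had an adjusted p under 0.05 in DESeq2 but not in edgeR, and they were named after their values were seen. Kirrel3 (DESeq2 log2 fold change -1.64), Naaladl2 (-1.60), Slit2 (-1.59), Setbp1 (-1.44), Nebl (-1.02), 1700025G04Rik (-0.78), Pdzd2 (-0.76) and Dab1 (-0.66) were lower in that test. Dync2h1 (0.92), Lipo3 (0.88) and 4930402H24Rik (0.50) were higher. Their adjusted p in edgeR was 0.0530 to 0.0969. Kirrel3 and Slit2 are known for adhesion and guidance of axons, and Dab1 is the adaptor of the reelin pathway. Dync2h1, a motor of transport in cilia, is like Dnah8 a dynein heavy chain, but the fold changes of the pair were opposite in sign.

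Larger fold changes did not always pass. Col14a1, a fibril-associated collagen, had 19 and 24 counts in WT against 138 and 12 in Vil-CREPTKO crypts, and the log2 fold change was 1.98 ± 0.93 (SE, adjusted p = 0.391 by edgeR). The high count was that of Vil-CREPTKO replicate 1, the library in which the summed stromal markers were highest (28.4 CPM, against 13.3 to 19.8 CPM). Cubn, the endocytic receptor for intrinsic factor and vitamin B12, had 2970 and 7453 counts in WT against 1907 and 683 in Vil-CREPTKO (-1.86 ± 0.53 SE, adjusted p = 0.131 by edgeR). Both were named after their values were seen.

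The 6 longest bodies show how the annotation sets the length. Fgfr2, a receptor for fibroblast growth factors, has a body of 2960.9 kb (chr7:130162451-133123350, minus strand), but its principal transcript spans 102.5 kb. It had 647 and 613 counts in WT against 430 and 481 in Vil-CREPTKO crypts (log2 fold change -0.35 ± 0.16 SE, adjusted p = 0.381 by edgeR). Ptprd, a receptor tyrosine phosphatase, spans 2270.7 kb with a principal transcript of 508.7 kb and had 1869 and 1853 counts in WT against 1906 and 2002 in Vil-CREPTKO (0.19 ± 0.12 SE). For 455 of the 526 long genes the principal transcript itself was at least 200 kb, for 71 it was shorter, and for 27 of these it was under 100 kb. The class defined by the principal transcript gave the same 4 changes and a median log2 fold change of -0.027.

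The other 4 of the 6 are long in their principal transcript as well. Dmd, which encodes dystrophin, the link between actin and the membrane, spans 2257.3 kb of the X chromosome. It had 1161 and 1125 counts in WT against 662 and 1066 in Vil-CREPTKO (-0.30 ± 0.18 SE), and both Vil-CREPTKO libraries lay below WT. Macrod2, an ADP-ribose hydrolase gene of 1997.7 kb, had 200 and 240 counts against 167 and 136 (-0.41 ± 0.28 SE). Fhit, a diadenosine triphosphate hydrolase gene of 1611.9 kb that spans a fragile site, had 70 and 97 counts against 144 and 124 (0.80 ± 0.34 SE, adjusted p = 0.321 by edgeR). Pde4d, a cyclic AMP phosphodiesterase gene of 1503.5 kb, had 552 and 500 counts against 325 and 455 (-0.32 ± 0.19 SE). The groups did not overlap in CPM in any of these 4 genes, which was also so in 45.1% of all genes tested. None of the 4 had an adjusted p under 0.05, and the signs of the fold changes were mixed.

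**Figure D3:**
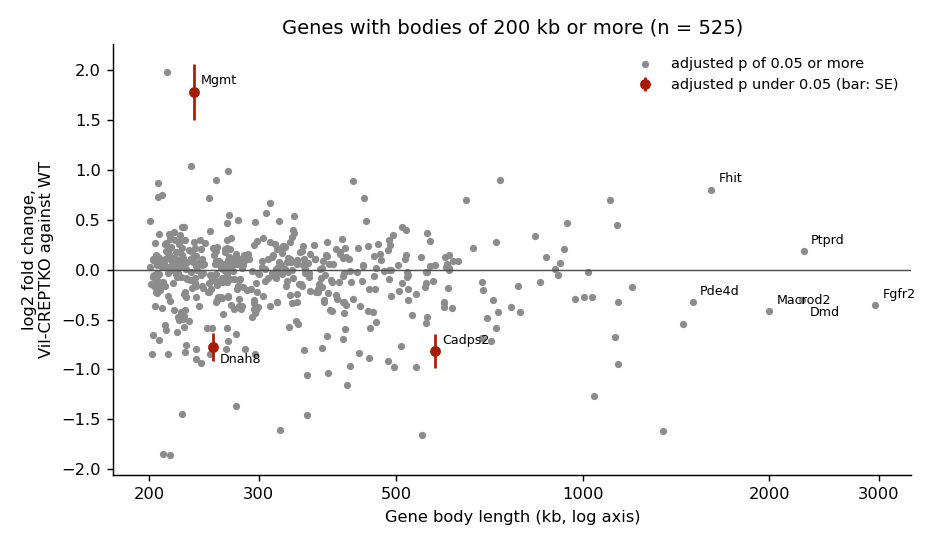
Each point is 1 of 525 long genes, with its body length in kb on a log axis and its log2 fold change (Vil-CREPTKO against WT); red points with SE bars had an edgeR adjusted p under 0.05. Of them 3 are red, Mgmt, Cadps2 and Dnah8, and the 6 longest genes lie between -0.41 and 0.80.

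The highest levels per kb of exon belonged to long genes of the epithelial cytoskeleton and of metabolism, and none of them changed by the test. Iqgap2, a scaffold for Rac1 and Cdc42, was at 375 and 525 CPM in WT and, in Vil-CREPTKO crypts, at 603 and 438 CPM (log2 fold change 0.21 ± 0.23 SE), so the groups overlapped. Chchd3, a subunit of the mitochondrial cristae complex, had 161 and 182 CPM against 207 and 190 CPM (0.21 ± 0.14 SE). Gmds, which starts the synthesis of GDP-fucose, had 192 and 176 CPM against 251 and 235 CPM (0.40 ± 0.14 SE, adjusted p = 0.219 by edgeR). Myo1d, a class I myosin of the brush border, had 295 and 329 CPM against 379 and 385 CPM (0.29 ± 0.15 SE). Epb41l3, a membrane skeleton protein, had 333 and 483 CPM against 467 and 361 CPM (0.022 ± 0.22 SE). Suclg2, a subunit of succinyl-CoA synthetase, had 145 and 144 CPM against 167 and 180 CPM (0.26 ± 0.13 SE).

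Over the whole class the fold changes were centred close to 0. The median log2 fold change of the 526 long genes was -0.028 (quartiles -0.27 and 0.12), with 53.4% below 0. The median was 0.025 in genes of 20 to 50 kb, with 45.3% below 0, and -0.006 over all genes tested. The difference of medians, long genes minus genes of 20 to 50 kb, was -0.053. With each library set against the mean of all 4, this difference was 0.014 and 0.048 in the WT pair and -0.059 and 0.0054 in the Vil-CREPTKO pair. WT replicate 1 and Vil-CREPTKO replicate 2 were thus closer to each other than either was to its own replicate. Set against the WT mean, the median long gene was -0.083 in replicate 1 of Vil-CREPTKO and 0.0040 in replicate 2, so the first of these libraries was the lower. The sign of the median rested on WT replicate 2, without which it was 0.0046, against -0.0069 without Vil-CREPTKO replicate 1. WT replicate 2 was also the only library with high Xist and no Y-linked counts, so by these genes sex was unbalanced between the groups. What sex added to results that rest on that library was not tested.

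The median log2 fold change was lowest at the far end of the range. It was -0.0090 in 273 genes of 200 to 300 kb, -0.019 in 168 genes of 300 to 500 kb and -0.13 in 85 genes of 500 kb or more, 63.5% of which were below 0. For these 85 genes the difference from genes of 20 to 50 kb was 0.079 and 0.11 in WT against -0.12 and -0.030 in Vil-CREPTKO. On this measure the gap between the groups exceeded the spread within either group, whereas on the medians of the 85 genes alone (WT 0.053 and 0.11, Vil-CREPTKO -0.12 and -0.012) it was smaller than the spread between the Vil-CREPTKO libraries. At an unadjusted p under 0.05, 11 of the 85 were lower (12.9%) and 3 were higher (3.53%), against 9.76% and 4.49% of all genes tested. The genes of 300 to 500 kb numbered 17 lower (10.1%) and 2 higher (1.19%), and those of 200 to 300 kb 18 lower (6.59%) and 7 higher (2.56%). Only Cadps2 passed the adjusted threshold in this class.

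**Figure D4:**
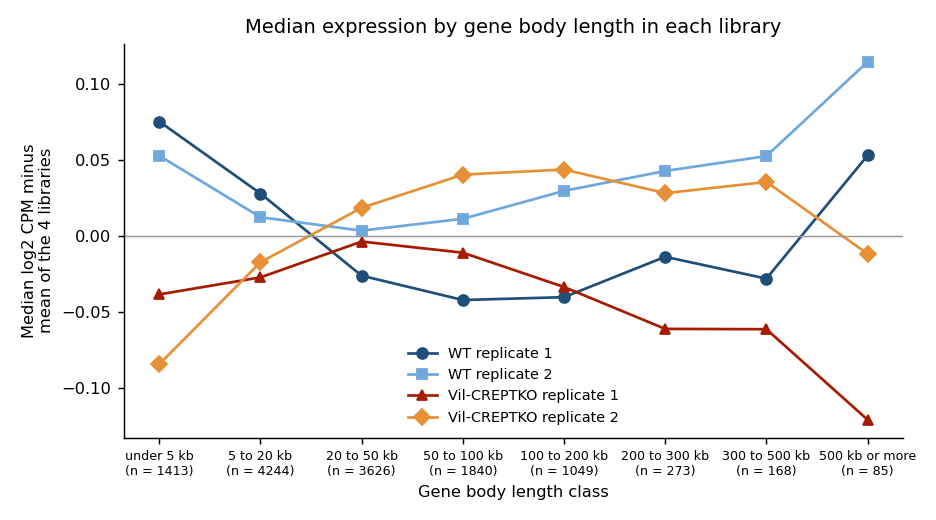
Lines join the median, over the genes of each body length class, of log2 CPM minus its mean over the 4 libraries, for each WT (blue) and Vil-CREPTKO (red, orange) library. At 500 kb or more the WT medians were 0.053 and 0.11 and the Vil-CREPTKO medians -0.12 and -0.012, whereas from 200 to 500 kb Vil-CREPTKO replicate 2 lay between the WT libraries.

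Body length had opposite rank correlations with the fold change over all coding genes and within the long genes. Spearman's rank correlation of log2 fold change against body length was 0.12 over all 12698 coding genes, where the shortest genes held the lowest values, and -0.10 among the 526 long genes (-0.049 without WT replicate 2). These correlations are across genes, which share libraries and are not independent replicates. Among the long genes, it was -0.18 with the longest intron, -0.054 with exonic length, 0.17 with WT level and 0.049 with GC content of the transcript. The relation with WT level was nearly the same in genes of 20 to 50 kb (0.16), and the difference between the 2 WT libraries was itself related to WT level (-0.21) and, less so, to body length (-0.071).

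The longest intron went with the fold change more closely than the whole body did, a measure chosen after the values were seen. In the 176 long genes whose longest intron was 9.45 to 68.7 kb, the median log2 fold change was 0.035. It was -0.020 in the middle 174 and -0.12 in the 176 whose longest intron was at least 113.8 kb. In the last of these, 25 genes were lower and 6 higher at an unadjusted p under 0.05, compared with 5 and 3 in the first. Over all genes tested, 9.76% were lower and 4.49% higher at that level. Per library, the median of this last group was 0.044 and 0.091 in WT against -0.12 and -0.0028 in Vil-CREPTKO. The 2 groups did not overlap, but their gap was smaller than the spread between the Vil-CREPTKO libraries. The median WT level was 22.7 CPM in the group with the shortest introns and 9.54 CPM in that with the longest.

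Long genes differed from genes of 20 to 50 kb in many other properties. Their median exonic length was 9687 bp against 5082 bp, their longest intron 85132 bp against 8551.5 bp, and their number of exonic blocks 23 against 12. Introns made up 97.0% of the body against 83.7%, WT expression per kb of exon was 1.72 against 5.40 CPM per kb, and 88.6% of them overlapped another annotated gene against 53.4%. Among the 4 genes that passed the test, none was free of an overlap.

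Within strata of exonic length, WT level and GC content (3 equal strata of each), the difference of medians ranged from -0.14 to 0.040 and was negative in 7 of 9. It was -0.14 in the stratum with the lowest GC content (175 long genes, 0.063 and 0.067 in the WT pair and -0.12 and -0.013 in the Vil-CREPTKO pair) and 0.0043 in the stratum with the highest. It was 0.040 in the stratum with the shortest exonic length (44 long genes) and -0.085 in the stratum with the lowest WT level. The Vil-CREPTKO libraries lay below the WT libraries in 4 of the 9. Among long genes at or above the class median of 15.6 CPM, the median log2 fold change was -0.049 for 37 genes of 500 kb or more and 0.038 for 149 genes of 200 to 300 kb. Below that level the medians were -0.19 (48 genes) and -0.11 (124 genes), so the longest genes were lower on both sides of it.

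Of the genes next to the 200-kb limit, 2 were just inside it. Umad1 (200.2 kb) had 716 and 749 counts in WT against 647 and 728 in Vil-CREPTKO crypts (log2 fold change 0.023). 4930402H24Rik (200.2 kb) had 2142 and 2166 against 2576 and 3005 (0.49). Just below 200 kb, Atp9b (199.9 kb) had 2215 and 1960 against 1950 and 2216 (0.11) and Morc1 (199.7 kb) had 15 and 17 against 18 and 12 (0.037).

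Grouped by function, 222 long genes belonged to at least 1 of 11 lists, which overlap, and 304 were in none. Scaffolds and adhesion proteins held 18 long genes, of which 8 were below and 10 above 0 (median 0.046), and none passed the test. Cdh13, an atypical cadherin, had 51 and 40 counts in WT against 13 and 22 in Vil-CREPTKO crypts (log2 fold change -1.27 ± 0.52 SE, adjusted p = 0.307 by edgeR). Tjp1, the tight junction scaffold ZO-1, had 6683 and 7283 counts against 6779 and 8006 (0.19 ± 0.13 SE). The list of giant cytoskeletal proteins, which also holds others such as Myo1d, Tiam1 and Mast4, was divided likewise. Of its 23 long genes, 10 were below and 13 above 0 (median 0.022). Among them Nav2, a microtubule-binding neuron navigator, had 2065 and 2079 counts against 1167 and 1577 (-0.49 ± 0.13 SE, adjusted p = 0.116 by edgeR).

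The signalling lists had medians below 0. The list of receptors and kinases also holds phosphodiesterases, phospholipases, phosphatases and Rptor. Of its 31 long genes, 24 were below and 7 above 0 (median -0.12), but no member passed the test. Ghr, the growth hormone receptor, had 561 and 478 counts in WT against 196 and 362 in Vil-CREPTKO (-0.80 ± 0.25 SE, adjusted p = 0.170 by edgeR). Prkca, protein kinase C alpha and the most abundant of the list, had 8227 and 8582 counts against 6762 and 8176 (-0.059 ± 0.13 SE). Of 24 regulators of small GTPases, 16 were below and 8 above 0 (median -0.055). Arhgap24, a Rac-directed GTPase-activating protein, had 114 and 98 counts against 29 and 60 (-1.15 ± 0.41 SE, adjusted p = 0.224 by edgeR). The median per library of the list of receptors and kinases was -0.017 and 0.14 in WT against -0.080 and -0.022 in Vil-CREPTKO. WT replicate 1 thus lay next to the Vil-CREPTKO libraries.

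Transcription factors (32 long genes) were below 0 in 20 cases and above in 12 (median -0.079). Pbx3, a homeodomain cofactor, had 331 and 335 counts in WT against 165 and 177 in Vil-CREPTKO (-0.84 ± 0.22 SE, adjusted p = 0.0951 by edgeR), whereas Tcf12, an E protein, had 3950 and 3875 against 3484 and 4418 (0.12 ± 0.12 SE). The list of 16 chromatin regulators, which also holds others such as Rad51b and Tasp1, was mostly above 0 (12, against 4 below, median 0.043). Its medians per library were -0.011 and -0.021 in WT against -0.12 and 0.082 in Vil-CREPTKO. The Vil-CREPTKO libraries thus lay on opposite sides of WT. Setbp1, which binds the SET protein, had 146 and 141 counts against 38 and 59 (-1.46 ± 0.34 SE, adjusted p = 0.0671 by edgeR), and Rere, an atrophin-family corepressor, 9460 and 8799 against 7041 and 8935 (-0.082 ± 0.14 SE). Of 7 RNA-binding proteins, 4 were below and 3 above 0 (median -0.17). Among these, Rbms1 had 423 and 404 counts against 251 and 250 (-0.60 ± 0.20 SE, adjusted p = 0.187 by edgeR) and Snd1, a Tudor nuclease, 8319 and 9008 against 7972 and 9640 (0.13 ± 0.14 SE).

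Trafficking and autophagy (34 long genes) held 12 below and 22 above 0 (median 0.058), with Cadps2 the 1 that passed the test and fell. Lrba, a BEACH-domain protein of vesicle transport, had 9719 and 11314 counts in WT against 9006 and 10178 in Vil-CREPTKO (-0.020 ± 0.15 SE). The 31 genes of metabolism and transport were below 0 in 11 cases and above in 20 (median 0.074). Naaladl2, named for its likeness to a peptidase of N-acetylated peptides, had 91 and 126 counts against 25 and 41 (-1.61 ± 0.41 SE, adjusted p = 0.0873 by edgeR). The 6 genes of the ubiquitin list, which also holds the Arf GTPase-activating proteins Asap1 and Asap2, were evenly divided (median 0.0059). Asap1 had 638 and 593 counts against 822 and 748 (0.48 ± 0.17 SE), and the log2 fold change of Asap2 was -0.093. Nedd4l, an E3 ligase that limits the epithelial sodium channel, had 3252 and 3426 against 3329 and 3979 (0.24 ± 0.12 SE).

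Long genes at common fragile sites, stretches that break under replication stress, were tallied as a separate list that overlapped the others. Of 24, 14 were below and 10 above 0 (median -0.091), and none passed the test. Their medians per library were 0.052 and 0.12 in WT against -0.17 and 0.053 in Vil-CREPTKO, so the list was lower in Vil-CREPTKO replicate 1 and at the WT level in replicate 2. Dpyd, the first enzyme of pyrimidine breakdown and the most abundant, had 7826 and 10157 counts against 9886 and 8171 (0.13 ± 0.20 SE), and the groups overlapped.

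**Figure D5:**
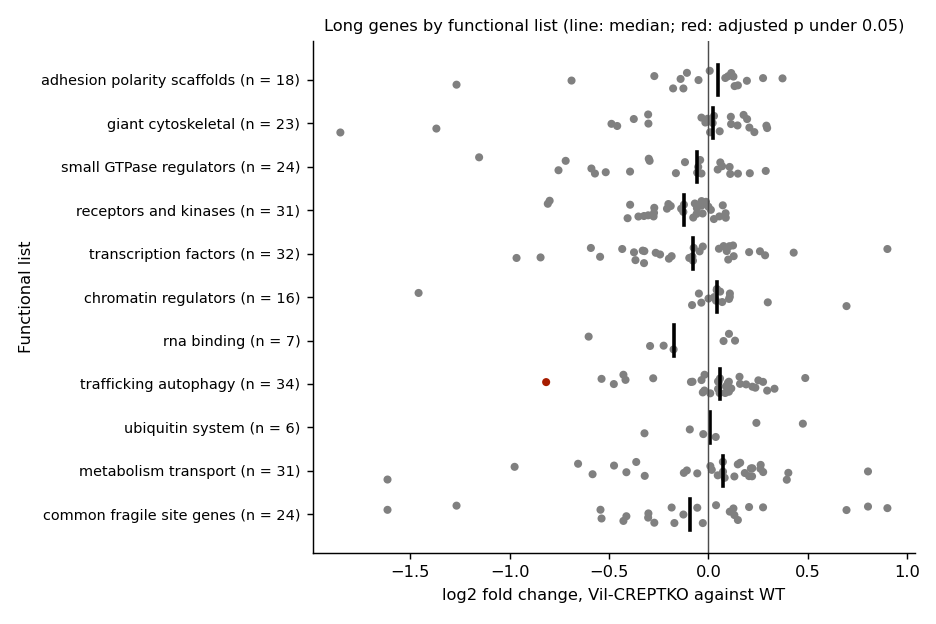
Points are the log2 fold changes (Vil-CREPTKO against WT) of long genes in 11 functional lists, spread vertically at random; black lines are medians and the red point, Cadps2, had an adjusted p under 0.05. Medians lay between -0.17 (RNA-binding proteins) and 0.074 (metabolism and transport), narrow beside the spread within each list.

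The machinery that carries polymerase through gene bodies was examined whole, whatever the length of its own genes. Of 50 listed genes for elongation factors, topoisomerases and U1 snRNP proteins, 49 were tested, and 13 were below and 36 above 0 (median 0.063, against -0.006 over all genes tested). Nelfe, a subunit of the negative elongation factor that holds polymerase near promoters, was the 1 of these 49 that passed. Over all genes tested, 2.71% did. Nelfe had 1408 and 1723 counts in WT against 520 and 437 in Vil-CREPTKO crypts (log2 fold change -1.59 ± 0.20 SE, adjusted p = 0.0061 by edgeR). The other listed subunits of that factor, Nelfa, Nelfb and Nelfcd, had log2 fold changes of 0.025, 0.071 and -0.19, and none of them passed.

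Of the 470 long coding genes of the table that missed the count minimum, 146 were at 0 in every library, 367 had under 10 counts in every library (the 146 included) and 103 passed in some libraries only. In 10 of these 103 both libraries of one group passed and neither of the other: Slc4a10, Samd12, Sdk2, Thsd4, Unc79, Myo3b and Kcnh8 in WT, and Gabrb1, Ntrk2 and Samd4 in Vil-CREPTKO. The entry rule for these 10 was itself a group difference in counts. A p-value from the same counts is therefore no separate support for one. Slc4a10, a sodium-dependent bicarbonate transporter, had 52 and 63 counts in WT against 7 and 4 in Vil-CREPTKO crypts (log2 fold change -3.23 ± 0.60 SE, adjusted p = 0.0284 by edgeR). It was the only one of the 10 with an adjusted p under 0.05, and that p was 0.0872 when WT replicate 2 was left out and 0.0652 when replicate 2 of Vil-CREPTKO was. It stands outside the class because of its low Vil-CREPTKO counts, and a minimum set on the mean count would include it, which brings the class to 580 tested genes with 4 lower and 1 higher.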

How the data were processed

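RNA-seq of intestinal crypts gave 2 WT and 2 Vil-CREPTKO libraries. The deposited values were whole-number read counts per gene, 1 column per library. Per the labels and the study's methods, the authors mapped clean reads to GRCm38.p6 transcripts with Bowtie2 and estimated expression with RSEM; the submitters' processing notes also name CASAVA 1.8. Other versions, the annotation release and the strand setting are not given in the sources used here, so reads of overlapping genes may sit with either gene. Of 53845 rows, 53274 matched GENCODE M21, and 380 were unnamed. Intronic reads are not separated in such counts, and a fold change says nothing of where along a body reads fell.

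Counts were tested in R 4.3.3 with edgeR 4.0.16 (filterByExpr, TMM, quasi-likelihood test, two-sided, group as the only term) over 17504 genes, and p-values were adjusted by Benjamini-Hochberg over all of them. The SE was the absolute log2 fold change divided by the square root of F. CPM were computed from the tested genes after TMM, except for Xist, the Y-linked genes and the sums of markers and of the elongation list. Those were scaled to the total counts of each library, without TMM. The common biological coefficient of variation was 0.188. With totals of 47241049 to 49369315 counts, library spread rather than counting error was the limit for genes with many counts. At low counts, counting error was large as well, as in Morc1 (12 to 18 counts, SE 0.65). Replicates differed beyond sampling noise (chi-square per gene 49.8 in WT and 70.1 in Vil-CREPTKO). The code was tested on simulated data. DESeq2 1.42.0, other scalings, a GC and length correction, other length limits and leaving out each library were alternatives, and a class by principal transcript was added after seeing the data.

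The long genes, lists and tests were chosen with earlier results of these data known, so medians and counts of lists are descriptions with no test. Genes named were those called, the other genes with adjusted p under 0.05 (up to 4 in each direction), the 6 longest, the 6 highest in WT CPM per kb of exon, the lowest p and highest WT level in each list, those next to 200 kb, long genes passing the count minimum in 1 group only, and Rprd1b; others are marked in the text or, with Glo1 and Dclk1, were chosen after values were seen. Promoters came from RefSeq; 399 of the 526 long genes (75.9%) had one, so no promoter property was compared over the class. Some genes that met these rules are not reported here.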

Additional observations from a re-analysis of the deposited data

How the results depend on the processing

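With 2 libraries a group, the count of long genes that passed depended on the method. The difference of medians was negative in 20 of 21 settings (-0.098 to 0.0065). A change of scaling moves both classes nearly alike and could hardly alter it (-0.053 with TMM and with upper-quartile scaling). Most other settings used the same libraries and overlapping genes, so these 20 are not separate results. Long genes with adjusted p under 0.05 numbered 3 lower and 1 higher, with 2 called, in edgeR. They numbered 11, 4 and 7 with DESeq2, 12, 1 and 8 with library-size scaling, and 24, 6 and 12 without the filter on low counts. As shares, lower and higher together, these were 2.93%, 2.47% and 5.70% of the long genes with an adjusted p, against 5.35%, 3.97% and 4.35% of all genes in the same fits. They were 2, 0 and 1 for bodies of 300 kb or more, 8, 5 and 9 for 100 kb or more, and 0, 0 and 0 for long genes overlapping no other gene. Leaving out each library in turn gave 3 to 9 lower, 1 to 3 higher and 4 to 7 called. Without WT replicate 1 there were 7, 1 and 5, without WT replicate 2 there were 3, 2 and 4, without Vil-CREPTKO replicate 1 there were 6, 2 and 7, and without Vil-CREPTKO replicate 2 there were 9, 3 and 7. The share of long genes was 0.951% to 2.28% over these fits and that of all genes 2.35% to 3.65%. The cause was not tested.

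The median log2 fold change of the long genes was -0.12 with library-size scaling (-0.098 over all genes tested) and above 0 with upper-quartile scaling (0.0060), the GC and length correction (0.014), a limit of 100 kb (0.0066) and without WT replicate 2 (0.0046). Over the libraries left out it ranged from -0.088 to 0.0046. The difference of medians was 0.0065 against genes of 5 to 20 kb, and -0.098 (without Vil-CREPTKO replicate 2) to -0.040 (without Vil-CREPTKO replicate 1) when 1 library was left out. The rank correlation with body length was negative in each setting in which it was computed, weakest without WT replicate 2 (-0.049). A change of scaling hardly alters ranks, so the settings of scaling could not test this sign (-0.105 with TMM and with upper-quartile scaling).

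Replicate numbers did not pair the libraries (correlation of deviations 0.0277), so a fit with the replicate number as a block shows only a shared number. With that replicate block, 5 long genes were lower, 3 higher and 2 called (1.52% changed, against 3.19% of all genes).

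Mgmt kept an adjusted p under 0.05 in every alternative fit. Over 51 named genes and their alternatives, 573 of 611 values kept sign and side of the threshold, 12 newly passed, 9 no longer passed and 17 changed sign, all in genes with a log2 fold change between -0.082 and 0.21. Rere was 0.026 after the GC and length correction, and Lrba 0.0077 there and 0.016 with upper-quartile scaling. With library-size scaling Epb41l3 was -0.071, Umad1 -0.068 and Morc1 -0.065. Over the libraries left out in turn, the lowest and highest values were -0.11 and 0.36 for Dpyd, -0.22 and 0.32 for Epb41l3, -0.044 and 0.47 for Iqgap2, -0.15 and 0.12 for Lrba, -0.036 and 0.084 for Umad1, -0.39 and 0.38 for Morc1 and -0.12 and 0.00026 for Prkca.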

Other observations

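The table also held 100 non-coding genes with bodies of 200 kb or more, of which 6 had at least 10 counts in every library, with 3 below and 3 above 0. None had an adjusted p under 0.05 in edgeR, and 3 had an unadjusted p under 0.05. Pvt1, the long non-coding RNA next to Myc, had a log2 fold change of 1.56 ± 0.48 (SE, adjusted p = 0.159 by edgeR). Snhg14, the host transcript of imprinted small nucleolar RNAs that runs antisense to Ube3a, had 0.47 ± 0.18 (SE, adjusted p = 0.277 by edgeR). The row named Trerf1 had -0.58 ± 0.24 (SE, adjusted p = 0.317 by edgeR).

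The 20 long genes on the X chromosome had a median log2 fold change of -0.18, with 70.0% below 0, against -0.025 for the 506 autosomal long genes. Their medians per library were 0.15 and 0.10 in WT against -0.14 and 0.0086 in Vil-CREPTKO. None had an adjusted p under 0.05 in edgeR, 1 was lower at an unadjusted p under 0.05, and the WT libraries differed in Xist and Y-linked genes.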
